A study of Mus musculus with 12 samples.

Results

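The nuclear genes of oxidative phosphorylation encode the subunits of respiratory chain complexes I to IV and of ATP synthase (complex V) that are made in the cytosol and imported into mitochondria. They were chosen by symbol from the count table, as all mouse genes named Nduf followed by a, b, c, s or v, Uqcr, Cox followed by a digit from 4 to 8, or Atp5, together with Sdha, Sdhb, Sdhc and Sdhd. With 1 pseudogene left out, 93 of the 24100 genes in the table met this rule. The rule also took 8 assembly factors of complex I, Ndufaf1 to Ndufaf8, which are not part of the finished complex and were counted apart.

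RNA was sequenced from mouse embryonic fibroblasts (MEFs) to compare transcription in the presence and absence of RTF2, a protein found at the replisome. The 4 groups were WT (Rtf2+/+) and RTF2-deficient (Rtf2-/lox) MEFs of line 1 and of line 2, the lines coming from different mothers and the genotypes of a line from littermates. Each group had 3 libraries, described by the paper as technical replicates. All MEFs, the WT included, were immortalized with SV40 and received Cre recombinase, which excises the floxed Rtf2 allele, from the Hit & Run pMMP retrovirus 72 hrs before harvest. P-values from these libraries measure only the spread between libraries of a group, since the 2 lines were the only biological replicates. Library totals lay between 39360167 and 44695002 counts, and a gene without a count in the shallowest library could have a level of up to 0.0762 CPM (counts scaled to a common library size and normalized by the TMM method), as far as counting error goes. In line 1, Rtf2 was at 44.9, 44.8 and 47.2 CPM in WT and 5.63, 5.44 and 6.29 CPM in RTF2-deficient MEFs. In line 2 it was at 57.7, 52.9 and 50.9 CPM in WT and 6.66, 6.49 and 6.33 CPM in RTF2-deficient MEFs, so no RTF2-deficient library overlapped with WT.

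Complex I (NADH dehydrogenase) and complex II (succinate dehydrogenase) pass electrons from NADH and succinate to ubiquinone, complex III passes them on to cytochrome c, and complex IV (cytochrome c oxidase) hands them to oxygen. Complexes I, III and IV pump protons across the inner mitochondrial membrane, and ATP synthase lets them return to make ATP. A few subunits of complexes I, III, IV and V are encoded by mitochondrial DNA, while complex II is wholly nuclear, and several subunits of complex IV have isoforms restricted to tissues such as heart, muscle, lung and testis.

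The libraries were fibroblast-like by their markers. All 10 fibroblast markers listed were tested, their summed level was between 19616 and 31831 CPM in every library, and Fn1, the most abundant, lay between 5617 and 11119 CPM. The lowest were Dcn, between 0.392 and 2.10 CPM, and Pdgfra, between 3.49 and 21.7 CPM. None of the 10 differed between genotypes by edgeR's test (adjusted p under 0.05). Markers of other cells were low. Of the macrophage and blood markers, 4 of 7 stayed under 1 CPM in every library, as did 4 of 6 endothelial markers, 4 of 7 epithelial markers, 6 of 9 muscle markers, 7 of 8 germ cell markers and 3 of 5 brown fat markers. Ckm of muscle and Pgk2 of the male germ line had no count. The most abundant of each list were Cd68 (at most 8.94 CPM), Kdr (at most 15.2 CPM), Krt18 (at most 12.4 CPM), Tnnt2 (at most 14.99 CPM), Sycp3 (at most 1.24 CPM) and Dio2 (at most 4.67 CPM). In RTF2-deficient MEFs 4 markers were higher by edgeR's test over both lines. Their log2 fold changes (RTF2-deficient over WT) and adjusted p were 0.58 and 0.0492 for Kdr, 0.74 and 0.0381 for Krt18, 3.66 and 0.00417 for Cldn4, and 1.32 and 0.0163 for Tnnt2. Thus 50% of 2 endothelial, 33.3% of 6 epithelial and 25% of 4 muscle markers tested were higher, beside 4.98% of all genes tested. The calls of Kdr and of Krt18 were each lost without any of 9 of the 12 libraries, with adjusted p of up to 0.119 and 0.104. Cldn4 was near the floor, with means of 0.0163 and 0.0292 CPM in WT lines 1 and 2 and at most 0.866 CPM in any library. DESeq2 gave it no adjusted p. The summed endothelial markers were at 14.7, 10.8 and 14.1 CPM in WT line 1, 14.9, 13.3 and 15.9 CPM in WT line 2, 20.4, 17.6 and 21.5 CPM in RTF2-deficient line 1 and 18.98, 17.9 and 14.3 CPM in RTF2-deficient line 2. The summed epithelial markers followed the lines more than the genotypes, with 2.27, 2.43 and 2.63 CPM in WT line 1, 9.94, 7.58 and 7.13 CPM in WT line 2, 2.79, 4.76 and 3.998 CPM in RTF2-deficient line 1 and 15.03, 11.5 and 10.1 CPM in RTF2-deficient line 2. The summed muscle markers were at 10.03, 12.04 and 12.7 CPM in WT line 1, 4.15, 4.08 and 3.78 CPM in WT line 2, 10.96, 16.1 and 16.2 CPM in RTF2-deficient line 1 and 13.4, 14.7 and 9.76 CPM in RTF2-deficient line 2, lowest in WT line 2. This sum was mostly Tnnt2, and the other 3 muscle markers tested had log2 fold changes below 0 that did not pass, -2.17 for Myod1, -0.46 for Tnnc1 and -0.04 for Actn2, so the median of the 4 was -0.25. No marker of other cells was lower over both lines. In line 2 alone Cd68 was lower, with a log2 fold change of -1.07 (adjusted p = 0.00809 by edgeR). The summed macrophage and blood markers were at 10.1, 7.19 and 8.10 CPM in WT line 2 and 5.46, 6.34 and 5.04 CPM in RTF2-deficient line 2. In line 1 the sums of the genotypes overlapped. The part of these cells in the results was not tested.

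The WT libraries of line 2 stood apart from the other 9. Xist was between 0.0217 and 0.132 CPM in them and at least 103 CPM elsewhere, and Ddx3y was between 91.8 and 107 CPM in them and at most 0.195 CPM elsewhere, values like those of a male embryo. In line 2 the effect of genotype therefore cannot be told apart from this difference, which line 1 does not hold. Whether the littermates of line 2 differed in sex or a library carries a wrong label is not known, and every value of line 2 and of both lines together holds for the libraries as labeled. The median log2 level of 12 interferon-stimulated genes was 9.20, 4.90 and 7.03 in WT line 2, against 4.01, 0.80 and 1.88 in WT line 1. It was 2.04, 0.46 and 0.82 in RTF2-deficient line 1 and 1.60, 3.56 and 7.44 in RTF2-deficient line 2. Their summed level ran from 59.3 to 6269 CPM across libraries, with Bst2 the most abundant. All 12 had log2 fold changes below 0 over both lines, with a median of -1.70, and 0 passed edgeR's test. The part of the interferon-stimulated genes in the results was not tested.

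The oxidative phosphorylation genes took between 0.657% and 0.859% of the counts of a library, and both extremes were libraries of WT line 2. Their summed level in WT line 1 was 6692, 7452 and 7451 CPM, and in WT line 2 it was 6238, 8462 and 6940 CPM. In RTF2-deficient MEFs it was 6918, 7376 and 7057 CPM in line 1 and 7742, 7071 and 6720 CPM in line 2, all within the range of WT. The library with the highest sum, WT line 2 replicate 2, also had the highest sum for each complex and for the assembly factors.

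**Figure D1:**
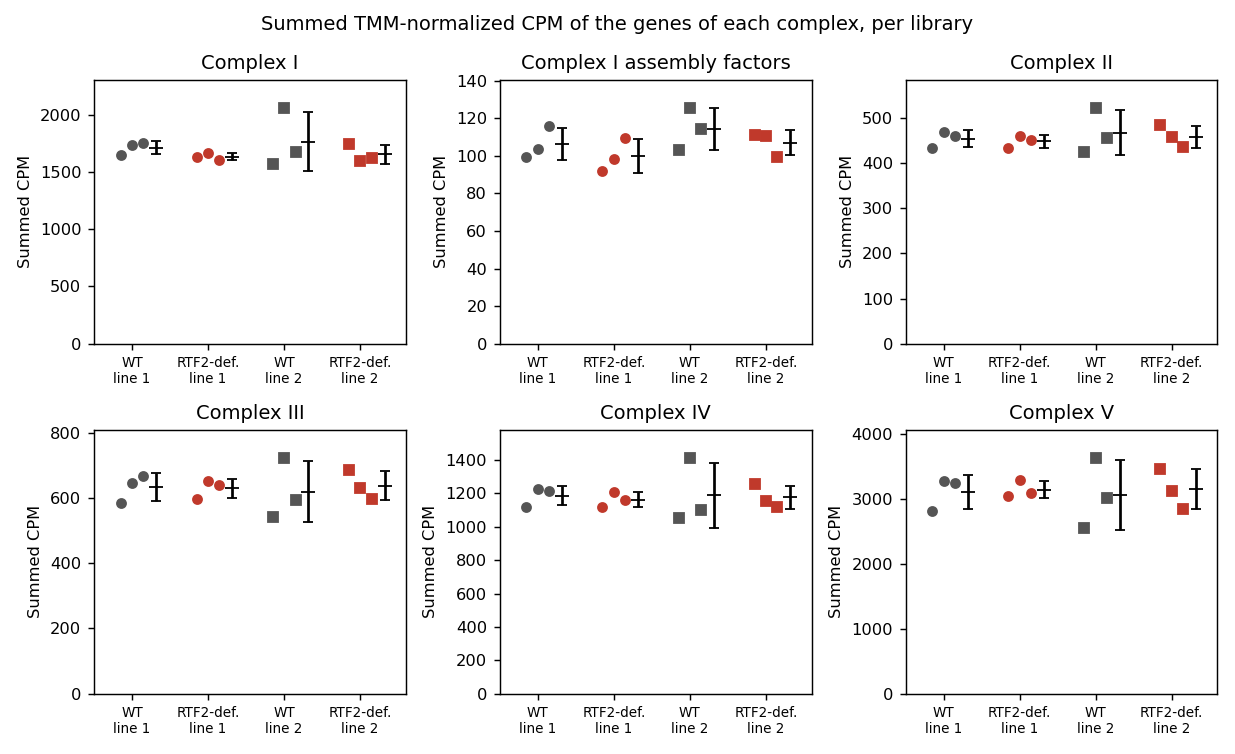
Summed TMM-normalized CPM (y axis) of the genes of each complex in every library, by group (x axis; gray WT, red RTF2-deficient, circles line 1, squares line 2), with the mean and SD of the 3 libraries in black. The RTF2-deficient libraries lie within the spread of WT in 5 panels, and for the assembly factors 2 of them lie below all of WT, while WT line 2 replicate 2 is the highest point in each panel.

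Levels of the genes differed widely when divided by transcript length. The highest of all was Atp5b, the catalytic beta subunit of ATP synthase, with a mean of 543 CPM per kilobase over the 12 libraries. The highest genes of the other complexes were Cox4i1 in complex IV (239 CPM per kilobase), Uqcrh in complex III (167), Ndufa7 in complex I (106) and Sdhd in complex II (83.5), and Ndufaf2 led the assembly factors (36.5). With the longest transcript of each gene as its length, a choice made after seeing the data, Uqcrb was the highest of complex III with 159 CPM per kilobase, and the other leading genes stayed the same. With the shortest transcript, also chosen after seeing the data, Ndufb8 led complex I (109 CPM per kilobase), Sdhc complex II (84.1) and Cox6b1 complex IV (303), so the order within a complex depends on the length taken.

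Over both lines, 9 of the 90 genes tested were lower in RTF2-deficient MEFs and 0 were higher, where a call took an adjusted p (edgeR's quasi-likelihood test, Benjamini-Hochberg adjustment over all genes) under 0.05. The 9 make up 10% of the genes tested, beside 8.18% of the 14263 genes tested in the whole table, so the share is near the background. For higher genes the share over the whole table was 4.98%. Of the 9, 7 were subunits of complex I, 1 was an assembly factor of complex I and 1 was an isoform of a complex IV subunit, while complexes II, III and V had none. The isoform, Cox6b2, was singled out with its fall known, so its place among the 9 supports nothing. The same 9 were lower by DESeq2 and 0 were higher, where 9.85% and 9.09% of all genes passed. At an unadjusted p under 0.05 edgeR had 14 lower genes and 0 higher, beside 15% and 13.5% of all genes. With the triplicates of each group summed, 0 of the 9 and 0 of all 14263 genes passed by edgeR, in a fit of 4 samples with 3 terms. A log2 fold change beyond 1 as a second condition left 1.72% of all genes in either direction and, of the 90, Cox6b2, from which nothing is read. In bulk RNA, fewer cells with a transcript and less of it per cell cannot be told apart.

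Most of the genes differed little between genotypes. The median log2 fold change of the 90 genes was -0.02 and its median size was 0.05, beside 0.00 and 0.15 over all genes tested. Without WT line 2 replicate 2 the median was 0.05. Values below 0 were seen in 54 of the 90 genes, or 60%, against 49.6% of all genes tested. Every RTF2-deficient library had a lower level than every WT library in 8 of the 90 genes, or 8.89%, against 4.41% of all genes, and a higher level than every WT library in 0, against 1.56%. The 8 include Cox6b2, which was singled out with its fall known, so its place among them supports nothing.

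**Figure D2:**
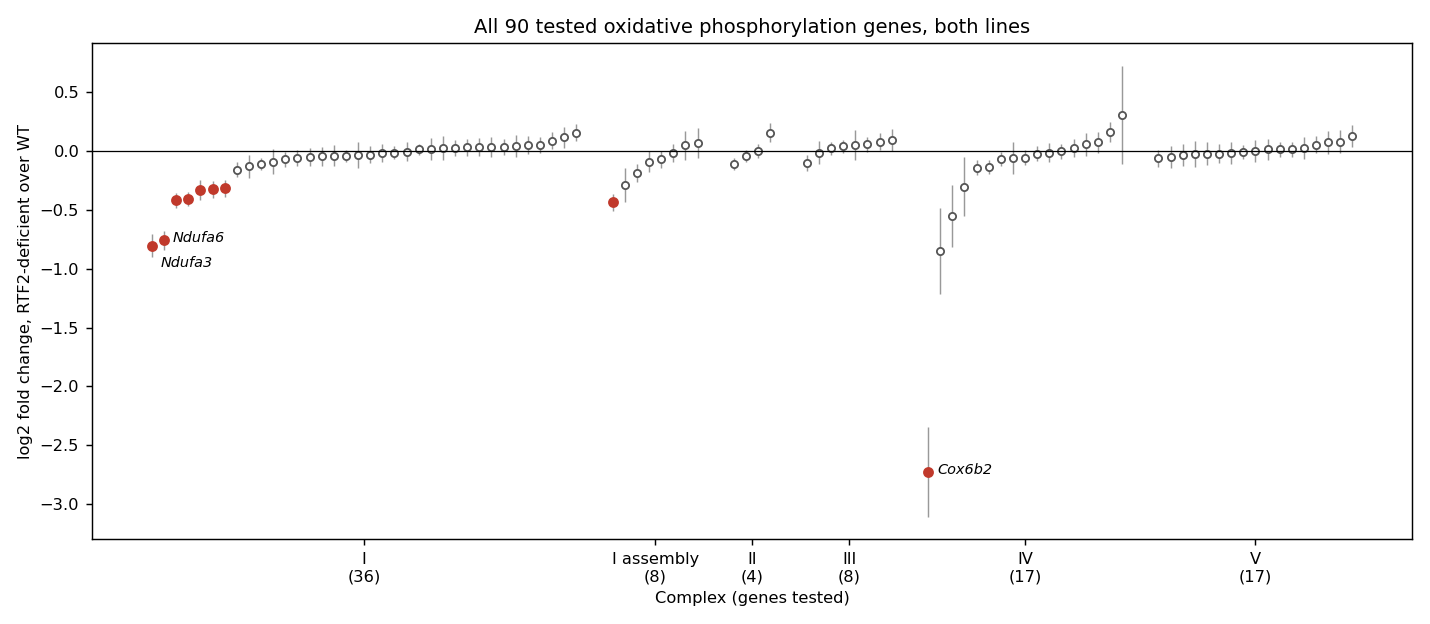
Log2 fold change, RTF2-deficient over WT, over both lines (y axis) of the 90 genes tested, grouped by complex and ordered by value (x axis, number of genes in parentheses). Red points passed an adjusted p under 0.05 and open points did not, bars are SE, and the red points are 7 genes of complex I, Ndufaf5 of its assembly factors, and Cox6b2 of complex IV at -2.73.

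In complex I, 7 of 36 subunits (19.4%) were lower and 0 were higher, beside 8.18% and 4.98% of all genes tested, with log2 fold changes from -0.80 to 0.15 and a median of -0.03. The largest differences were in Ndufa3 and Ndufa6, small accessory subunits, which were at 0.573 and 0.591 of their WT levels. Next by size came Ndufa13 and Ndufv1, and then Ndufb2, Ndufa11 and Ndufs7. Of these Ndufv1 and Ndufs7 are core subunits, which carry cofactors of the electron path. Other subunits of the same complex, such as Ndufa7, were nearly level between genotypes.

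Ndufa3 was at 33.5, 33.0 and 37.2 CPM in WT line 1 and at 22.2, 20.3 and 18.4 CPM in RTF2-deficient line 1. In line 2 it was at 28.7, 41.4 and 31.2 CPM in WT and at 20.4, 16.3 and 20.0 CPM in RTF2-deficient MEFs. The lowest WT library lay above the highest RTF2-deficient library, and the direction was the same in both lines. Over both lines Ndufa3 had a log2 fold change of -0.80 with an SE of 0.10 (adjusted p = 0.000225 by edgeR's quasi-likelihood test, n = 6 libraries per genotype). Within the lines it was -0.77 in line 1 and -0.84 in line 2. The gene lies on chromosome 7 from 3617347 to 3620165 (+ strand) and overlaps Tfpt on the opposite strand. Tfpt had a log2 fold change of -0.11 and did not pass the test (adjusted p = 0.281 by edgeR). Since the strand use of the counting is not known, how reads of the overlap were assigned is uncertain.

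Ndufa6, which has no overlapping neighbor in the annotation, was at 30.1, 30.4 and 29.4 CPM in WT line 1 and at 19.2, 17.6 and 17.2 CPM in RTF2-deficient line 1. In line 2 its levels were 30.2, 33.5 and 26.8 CPM in WT and 17.3, 14.8 and 20.6 CPM in RTF2-deficient MEFs. No library of one genotype overlapped with the other. The log2 fold change over both lines was -0.76 with an SE of 0.08 (adjusted p = 0.000112 by edgeR's quasi-likelihood test). It was -0.73 in line 1 and -0.78 in line 2, and it was the only gene of the 93 that kept its call in line 1 whichever library was left out. With a replicate block its adjusted p in line 1 was 0.059 by edgeR.

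Ndufv1, which binds the flavin that accepts electrons from NADH, was at 71.1, 68.7 and 71.7 CPM in WT line 1 and at 57.9, 53.7 and 52.0 CPM in RTF2-deficient line 1. In line 2, WT libraries had 65.4, 81.1 and 70.4 CPM and RTF2-deficient libraries 53.4, 49.2 and 56.2 CPM. The genotypes did not overlap in either line. Ndufv1 had a log2 fold change of -0.41 with an SE of 0.06 (adjusted p = 0.000846 by edgeR's quasi-likelihood test).

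Ndufa13, also known as GRIM-19, was at 64.7, 66.3 and 58.6 CPM in WT line 1 and at 50.1, 47.0 and 44.8 CPM in RTF2-deficient line 1. Its levels in line 2 were 65.8, 76.1 and 59.8 CPM in WT and 48.8, 49.3 and 52.4 CPM in RTF2-deficient MEFs. Again the lowest WT library lay above all RTF2-deficient libraries. Over both lines the log2 fold change was -0.42 with an SE of 0.06 (adjusted p = 0.00102 by edgeR's quasi-likelihood test). The gene overlaps Yjefn3 on the same strand and Tssk6 on the opposite strand. Tssk6 had a mean of 0.609 CPM and a log2 fold change of -0.10, and the assignment of shared reads is uncertain.

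Ndufa11 was at 34.4, 34.0 and 33.1 CPM in WT line 1 and at 28.7, 28.1 and 25.6 CPM in RTF2-deficient line 1. In line 2 it was at 32.3, 40.5 and 32.2 CPM in WT and at 27.9, 25.0 and 29.3 CPM in RTF2-deficient MEFs. There was no overlap between genotypes. For Ndufa11 the log2 fold change was -0.33 with an SE of 0.07 (adjusted p = 0.00861 by edgeR's quasi-likelihood test). Vmac, a gene on the opposite strand that overlaps it, had a log2 fold change of -0.33 (SE 0.10) and did not pass the test (adjusted p = 0.0556 by edgeR). How reads of the pair were assigned is uncertain.

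Ndufb2 differed least clearly of the 9 genes. It was at 20.0, 18.1 and 17.5 CPM in WT line 1 and at 14.4, 14.0 and 13.8 CPM in RTF2-deficient line 1, with no overlap. In line 2 it was at 14.6, 20.5 and 16.2 CPM in WT and at 15.3, 12.8 and 14.5 CPM in RTF2-deficient MEFs, where RTF2-deficient replicate 1 lay above WT replicate 1. The log2 fold change over both lines was -0.33 with an SE of 0.09 (adjusted p = 0.0256 by edgeR's quasi-likelihood test). The call was lost without any of 6 libraries, with an adjusted p of 0.0726 without RTF2-deficient line 2 replicate 2 as the highest. With a replicate block it was lost too (adjusted p = 0.0754 by edgeR). Braf, which overlaps it on the opposite strand, had a log2 fold change of -0.06. Gm42420 on the same strand and Gm16272 on the opposite strand also overlap Ndufb2 and were not among the genes tested. How shared reads were assigned is uncertain.

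Ndufs7, a core subunit that holds an iron-sulfur cluster, was named after its values were seen. It was at 27.7, 29.8 and 30.3 CPM in WT line 1 and at 25.0, 23.9 and 21.2 CPM in RTF2-deficient line 1. In line 2 it was at 25.5, 33.1 and 28.6 CPM in WT and at 24.1, 21.8 and 24.3 CPM in RTF2-deficient MEFs. The genotypes did not overlap, although 25.0 CPM and 25.5 CPM lay close together. This gave a log2 fold change of -0.32 with an SE of 0.07 (adjusted p = 0.0111 by edgeR's quasi-likelihood test).

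The 7 core subunits encoded in the nucleus all had log2 fold changes below 0, from -0.41 to -0.03. RLE normalization moved all genes by a median of 0.007, too little to turn any of these signs, so it is no check of this count. Their median was -0.11, and 2 of the 7 (28.6%), Ndufv1 and Ndufs7, passed the test. The 29 accessory subunits had a median of -0.00 with 5 lower (17.2%). Of all genes tested 8.18% were lower and 49.6% lay below 0, and a difference between core and accessory subunits was not tested. For complex I as a whole 22 of 36 values lay below 0, or 21 under RLE, where the sign of Ndufa5 turned. Ndufb5 had the highest log2 fold change of complex I, 0.15, and did not pass (adjusted p = 0.19 by edgeR). Ndufa7, the most abundant subunit by median transcript length, was nearly level, at -0.01.

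Of the 8 assembly factors of complex I, 1 was lower, or 12.5% beside 8.18% of all genes tested, and 6 had log2 fold changes below 0 with a median of -0.08. The lower one was Ndufaf5, an enzyme that modifies Ndufs7 during assembly. Its levels were 11.5, 11.9 and 12.7 CPM in WT line 1 and 8.83, 8.83 and 9.02 CPM in RTF2-deficient line 1, and in line 2 they were 12.5, 15.4 and 14.2 CPM in WT and 11.4, 10.2 and 9.51 CPM in RTF2-deficient MEFs. The genotypes did not overlap, with 11.4 CPM in RTF2-deficient line 2 close to 11.5 CPM in WT line 1. The log2 fold change was -0.44 with an SE of 0.07 (adjusted p = 0.00151 by edgeR's quasi-likelihood test), and it was -0.44 in each line. Ndufaf2 had a log2 fold change of -0.09 and did not pass.

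**Figure D3:**
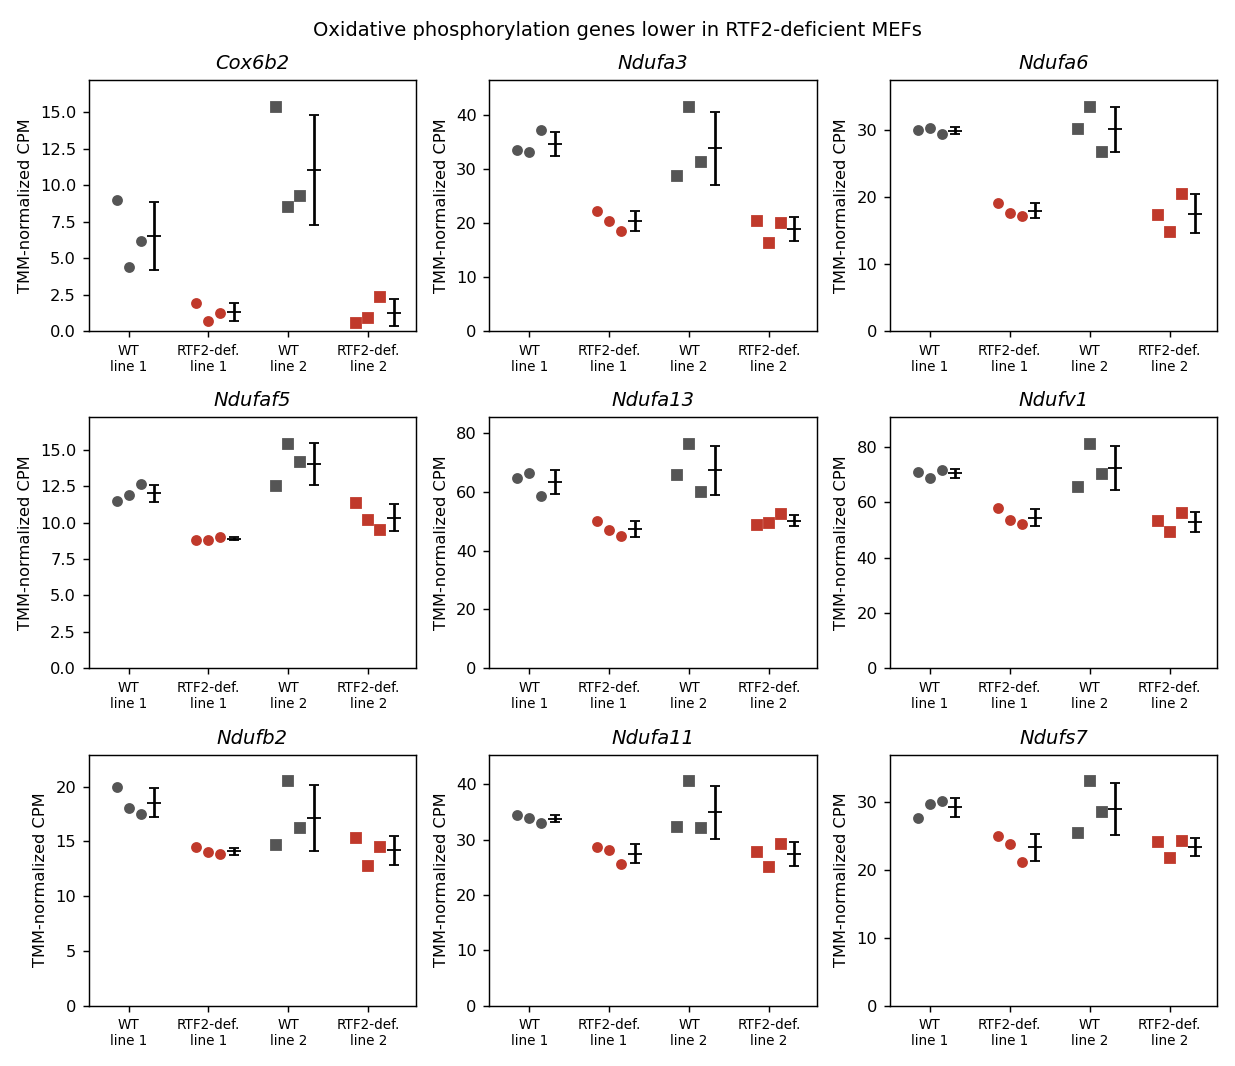
TMM-normalized CPM (y axis, from 0) of the 9 genes that were lower over both lines, in each of the 12 libraries by group (x axis; gray WT, red RTF2-deficient, circles line 1, squares line 2), with the mean and SD of the 3 libraries in black. In 8 panels all red points lie below all gray points, and in the panel of Ndufb2 they overlap in line 2.

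In complex II, 0 of 4 genes passed by edgeR and 0 by DESeq2, beside 8.18% lower and 4.98% higher of all genes tested by edgeR, and from so few genes nothing is read. Sdha, the flavoprotein subunit, was at 201, 218 and 203 CPM in WT line 1 and at 194, 207 and 193 CPM in RTF2-deficient line 1. In line 2 it was at 213, 252 and 225 CPM in WT and at 217, 206 and 196 CPM in RTF2-deficient MEFs, so that the genotypes overlapped. The log2 fold changes were -0.11 for Sdha, -0.04 for Sdhb, the iron-sulfur subunit, and -0.00 and 0.16 for the membrane anchors Sdhc and Sdhd. The sign of Sdhc turned under RLE normalization. Per kilobase the subunits had mean levels of 72.5 CPM for Sdha, 66.1 CPM for Sdhb, 34.4 CPM for Sdhc and 83.5 CPM for Sdhd.

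In complex III 0 of 8 genes passed, beside the same shares of all genes, and from this count too nothing is read. Their log2 fold changes ran from -0.10 in Uqcrc1, a core protein, to 0.09 in Uqcrfs1, the Rieske iron-sulfur protein, with a median of 0.05, and 2 of the 8 were below 0. Uqcrh, the most abundant by median transcript length, had a log2 fold change of 0.05.

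In complex IV, 1 of 17 genes tested was lower, Cox6b2, and 0 were higher, or 5.88% beside the 8.18% lower and 4.98% higher of all genes tested. It encodes an isoform of subunit 6b best known from testis, and it was singled out with earlier results of these data known, so its fold change is a description. Cox6b2 (Entrez 333182) lies on chromosome 7 from 4751792 to 4753094 on the - strand and has no overlapping gene in the annotation. Its counts in WT were 376, 177 and 256 in line 1 and 708, 385 and 391 in line 2, at levels of 8.98, 4.38 and 6.17 CPM and of 15.4, 8.49 and 9.23 CPM. In RTF2-deficient MEFs the counts were 81, 28 and 52 in line 1 and 23, 35 and 103 in line 2, at 1.93, 0.687 and 1.27 CPM and at 0.553, 0.898 and 2.33 CPM. The lowest WT library thus held 177 counts and the highest RTF2-deficient library 103, with no overlap. Libraries of a group differed among themselves, most in RTF2-deficient line 2 when set against the group mean. In each of the 4 groups the order of the libraries by Cox6b2 was their order by the interferon median given above. This median was also lower in the RTF2-deficient group of each line on average. The part of the interferon-stimulated genes in the level of Cox6b2 was not tested.

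The log2 fold change of Cox6b2 was -2.73 with an SE of 0.38, or 0.151 of the WT level. In line 1 alone, which holds no difference in sex-linked genes, the log2 fold change was -2.33 with an SE of 0.52, and in line 2 it was -3.12 with an SE of 0.53. The value in line 1 ran from -2.73 to -2.01 with single libraries left out and was -2.37 with a replicate block. The value of line 2 minus that of line 1 was -0.79. Since Cox6b2 was singled out with its fall in both lines known, nothing is read from this difference. WT line 2 had a mean of 11.03 ± 3.78 CPM (SD, n = 3) and WT line 1 one of 6.51 ± 2.32 CPM, while both RTF2-deficient groups had means near each other, 1.30 ± 0.624 CPM in line 1 and 1.26 ± 0.941 CPM in line 2.

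The widely expressed isoform of the same subunit, Cox6b1, did not follow. Its levels were 93.3, 109 and 109 CPM in WT line 1, 90.7, 130 and 94.7 CPM in WT line 2, 104, 112 and 115 CPM in RTF2-deficient line 1 and 119, 110 and 98.7 CPM in RTF2-deficient line 2. The genotypes overlapped, and the log2 fold change was 0.07 with an SE of 0.09 (adjusted p = 0.631 by edgeR). Per kilobase Cox6b1 had a mean of 221 CPM and Cox6b2 one of 11.6 CPM, so Cox6b2 was the minor isoform in these fibroblasts.

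Other isoforms restricted to certain tissues were low and did not pass the test. Cox4i2, of lung and known from hypoxia, was between 0.361 and 2.77 CPM, and its log2 fold change was -0.85 with an SE of 0.37 (adjusted p = 0.152 by edgeR). Ndufa4l2, another gene known from hypoxia, was between 1.59 and 4.94 CPM, with a log2 fold change of -0.55 (adjusted p = 0.189 by edgeR). Cox7a1 and Cox6a2, of heart and skeletal muscle, stayed at or below 0.551 CPM and 0.362 CPM and had log2 fold changes of -0.30 and 0.31. The last 3 of the 93 genes were too low to be tested. Cox7b2 and Cox8b each had 1 count in 2 libraries, and Cox8c had 0 counts in all 12.

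The isoforms found in most tissues were abundant and nearly level between genotypes. Log2 fold changes were -0.07 for Cox4i1, -0.02 for Cox6a1, -0.01 for Cox7a2, -0.06 for Cox7b, -0.14 for Cox8a and 0.03 for Ndufa4, and none of them passed the test. Per kilobase, mean levels were 239 CPM for Cox4i1 against 1.47 CPM for Cox4i2, 190 CPM for Cox6a1 against 0.314 CPM for Cox6a2, 114 CPM for Cox7a2 against 0.733 CPM for Cox7a1, and 191 CPM for Ndufa4 against 3.41 CPM for Ndufa4l2. Cox8a had 164 CPM and Cox7b 72.0 CPM. Cox7a2l, a factor of respiratory supercomplexes with a mean of 109 CPM per kilobase, had a log2 fold change of 0.16 (adjusted p = 0.247 by edgeR). For complex IV as a whole 12 of 17 values lay below 0, or 11 under RLE, where the sign of Cox5b turned.

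Of the 17 genes of ATP synthase 0 passed, beside 8.18% lower and 4.98% higher of all genes tested. Their log2 fold changes had a median size of 0.03, the smallest of any complex, and they ran from -0.06 to 0.13 with a median of -0.00. Of these 9 lay below 0, or 7 under RLE normalization, where the signs of Atp5g2 and Atp5j2 turned. Atp5b was at 903 CPM in WT line 1 replicate 1, its mean in WT line 1 was 1031 ± 111 CPM (SD, n = 3) and its mean in RTF2-deficient line 1 was 1072 ± 50.8 CPM. In line 2 the means were 999 ± 180 CPM and 1062 ± 147 CPM, and the log2 fold change was 0.07. The genes Atp5g1, Atp5g2 and Atp5g3 encode the same mature subunit c of the rotor ring. They had log2 fold changes of -0.03, -0.01 and 0.03 and mean levels of 24.6, 226 and 218 CPM per kilobase, so by median length most of this transcript came from Atp5g2 and Atp5g3. The transcripts of Atp5g1 run from 596 to 4715 bases with a median of 2675.5, so its level per kilobase depends on the length taken.

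Line by line, 6 of the 90 genes were lower in line 1 and 0 were higher, by edgeR's adjusted p, against 2.52% and 0.680% of all genes. The lower ones make up 6.67% of the 90. With a replicate block the count was 0, where 242 of all genes passed in either direction, and the 5 genes other than Cox6b2 had adjusted p between 0.059 and 0.132 by edgeR. At an unadjusted p under 0.05 the counts in line 1 were 9 lower and 0 higher, beside 8.5% and 5.43% of all genes, and DESeq2 called 6 lower and 0 higher, beside 4.19% and 1.78%. The genes lower in line 1 were Cox6b2, Ndufa3, Ndufa6, Ndufa13, Ndufv1 and Ndufaf5, of which Cox6b2 was singled out with its fall known. With only the 6 libraries of line 1, and thus without WT line 2, the same genes except Ndufaf5 were lower, beside 2.11% of all genes. With any single library of line 1 left out the count fell, as did that of all genes. It was 2 without WT line 1 replicate 1, replicate 2 or replicate 3 or RTF2-deficient line 1 replicate 1. It was 1, Ndufa6, without RTF2-deficient line 1 replicate 2 or replicate 3, and 3 without WT line 2 replicate 3 or any library of RTF2-deficient line 2. It stayed at 6 without WT line 2 replicate 1 or replicate 2. The share of all genes lower in line 1 was between 1.1% and 2.51% in these fits.

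In line 2, 7 genes were lower, the 6 of line 1 and Ndufa11, and 0 were higher, against 7.03% and 5.42% of all genes by the same edgeR test. The share of lower genes, 7.78%, was near that background. DESeq2 called 8 lower in line 2, with Ndufs7 added, and 0 higher, beside 9.54% and 8.59% of all genes. At an unadjusted p under 0.05 edgeR had 9 lower genes and 1 higher, Cox7a2l, against 15% and 12.8% of all genes. By edgeR's adjusted p the count of lower genes was 4 without RTF2-deficient line 2 replicate 2, beside 3.11% of all genes. With only the 6 libraries of line 2 it was 3, namely Cox6b2, Ndufa3 and Ndufa6, beside 4.17%. Without WT line 2 replicate 2, the library with high sums, 3 genes were higher in line 2 by edgeR's test, with log2 fold changes of 0.43 for Cox7a2l, 0.39 for Atp5md and 0.26 for Atp5e, beside 3.96% of all genes, and these were named after their values were seen.

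Of the 90 genes 0 passed edgeR's test of a difference between the lines in the effect of RTF2 deficiency, beside 1.29% of all genes, which does not show that the effects were equal. At an unadjusted p under 0.05 the count was also 0, beside 3.93% lower and 4.56% higher of all genes, as was that of DESeq2, beside 2.87%. The most negative difference, line 2 minus line 1, was the -0.79 of Cox6b2 and the most positive was 0.56 in Cox7a1 (adjusted p = 0.941 by edgeR).

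As a yardstick, the WT lines were compared with each other. They differed in 0 of the 90 genes by edgeR's test, against 14.0% of all genes, while at an unadjusted p under 0.05 Cox7a2l was lower and Cox7a1 higher in line 2, beside 13.7% and 14.4% of all genes, and DESeq2 called 1 gene, Cox7a2l, beside 19.3%. The log2 difference of Cox7a2l, WT line 2 over WT line 1, was -0.34 (adjusted p = 0.0785 by edgeR). Without WT line 2 replicate 2, 7 genes were lower in WT line 2, namely Cox7a2, Cox7c, Cox7a2l, Atp5l, Atp5j2, Atp5md and Atp5e, with log2 differences between -0.47 and -0.22. That is near the 7.12% of all genes lower in the same fit. With a replicate block 1 gene, Cox7a2l, was lower in WT line 2, beside 6.75% of all genes. The zero count thus did not hold without that library, by DESeq2 or with the block, and why was not tested.

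Genes that work with the complexes were described from 5 lists. None of the 13 subunits encoded by mitochondrial DNA was in the table, so these had no values. The shares of the other lists stand beside the 8.18% lower and 4.98% higher of all genes tested. Of 39 assembly factors outside the rule 37 were in the table and tested, and 1 was lower and 1 higher (2.7% each) over both lines by edgeR's quasi-likelihood test. Surf1, needed for the assembly of complex IV, had mean levels of 14.9 CPM in WT and 9.92 CPM in RTF2-deficient line 1, and of 17.0 CPM and 11.1 CPM in line 2. Its log2 fold change was -0.60 with an SE of 0.05 (adjusted p = 2.45e-05 by edgeR), and it was -0.59 in line 1 and -0.62 in line 2. The gene overlaps Surf2 on the opposite strand, and the assignment of shared reads is uncertain. Uqcc1, an assembly factor of complex III, had a log2 fold change of 0.20 (adjusted p = 0.0196 by edgeR), and its call was lost without any of 3 libraries, with an adjusted p of up to 0.0548. Coa5 had the next smallest p, with a log2 fold change of 0.15 (adjusted p = 0.0633 by edgeR), and it passed with an adjusted p of 0.0411 without RTF2-deficient line 1 replicate 1 and of 0.036 without RTF2-deficient line 2 replicate 3. It also passed by DESeq2 (adjusted p = 0.0151) and, by edgeR, with the filter of 1 CPM in 6 libraries (adjusted p = 0.0494).

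Among electron carriers and ATP export, 24 genes were tested over both lines, with 2 lower (8.33%) and 1 higher (4.17%), near the shares of all genes tested. Coq5 and Coq6 both act in the synthesis of ubiquinone, and they differed in opposite directions. Coq5 fell from means of 17.2 and 17.3 CPM in WT lines 1 and 2 to 14.1 and 13.5 CPM, a log2 fold change of -0.32 (adjusted p = 0.00928 by edgeR). Coq6, which overlaps Fam161b on the opposite strand, rose from 14.4 and 16.1 CPM to 19.3 and 20.4 CPM, a log2 fold change of 0.38 (adjusted p = 0.00382 by edgeR). Etfa, which feeds electrons from fatty acid oxidation into the chain, had a log2 fold change of -0.20 (adjusted p = 0.0379 by edgeR), and its call was lost without any of 9 libraries, with an adjusted p of up to 0.0979. By edgeR it was also lost with a replicate block (adjusted p = 0.0992), without a filter (0.0783) and with genotype alone (0.0508).

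Of 18 regulators of mitochondrial gene expression 1 was lower, or 5.56% against 8.18% of all genes tested, and 0 were higher. Polrmt, the RNA polymerase of mitochondria, was at means of 26.2 and 27.5 CPM in WT lines 1 and 2 and at 21.8 and 20.1 CPM in RTF2-deficient lines 1 and 2, with a log2 fold change of -0.36 (adjusted p = 0.0044 by edgeR). Polg and Lrpprc, next by p, had log2 fold changes of 0.17 and 0.15 and did not pass (adjusted p = 0.169 and 0.173 by edgeR).

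The tricarboxylic acid cycle, which supplies NADH and succinate, had 3 of 17 genes lower, or 17.6% against 8.18% of all genes tested, and 0 higher. Idh2, the mitochondrial NADP-dependent isocitrate dehydrogenase, differed most. It was at means of 180 CPM in WT and 108 CPM in RTF2-deficient line 1, and of 142 CPM and 84.8 CPM in line 2, with a log2 fold change of -0.74 and an SE of 0.11 (adjusted p = 0.00131 by edgeR). Pdhb, of pyruvate dehydrogenase, and Idh3b, of the NAD-dependent isocitrate dehydrogenase, had log2 fold changes of -0.29 each (adjusted p = 0.00637 and 0.011 by edgeR).

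The 9 lower genes lay on chromosomes 2, 6, 7, 8, 10, 15, 17 and 19, with 2 of them, Ndufa3 and Cox6b2, on chromosome 7 with 1131626 bases between them, and the 93 genes lay on 19 chromosomes. As a description without a test, the lower genes had a median gene span of 5423 bases against 7382 bases in the other 81 genes tested. Of the 93 genes 3 were on the X chromosome, and 0 of these were among the lower genes.

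Promoters were taken from RefSeq (GRCm38.p6) as the 250 bases before the start of a gene, which matched 76 of the 93 genes with 81 promoters. They were searched on both strands for exact letters of motifs of factors known to act on respiratory genes. The NRF1 motif GCGCATGC, or GCATGCGC on the other strand, was in 9 of the 81 promoters, or 11.1%, against 2.26% of all 32851 promoters. The GABPA motif CCGGAAGT was in 3, or 3.7%, against 2.88%, and the YY1 motif AAGATGGC in 1, or 1.23%, against 1.56%. Median GC content was 57.2% in the 81 promoters and 52.4% in all. Among the 9 lower genes, Ndufa6 and Ndufa11 had the NRF1 letters, Ndufa11 as both strands' letters overlapping, and 0 had those of GABPA or YY1. A match is a description, not a site.

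The upstream sequences of the 3 genes with the largest differences among the 9 lower genes and of Ndufa11 are given because they let the genes with the NRF1 letters be compared with those without, and capitals mark these letters. They are from GRCm38.p6 (RefSeq), 5′ to 3′ on the strand of the gene, each cut to a stretch free of annotated exons. They lie at chr15:82354323-82354541 on the - strand for Ndufa6, chr17:56717686-56717761 on the + strand for Ndufa11, chr7:3617123-3617346 on the + strand for Ndufa3 and chr7:4753095-4753225 on the - strand for Cox6b2.
Ndufa6: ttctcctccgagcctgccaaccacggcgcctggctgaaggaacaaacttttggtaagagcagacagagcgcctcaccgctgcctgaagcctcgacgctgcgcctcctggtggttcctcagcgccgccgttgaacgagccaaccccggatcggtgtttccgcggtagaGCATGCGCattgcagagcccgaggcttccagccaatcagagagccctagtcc
Ndufa11: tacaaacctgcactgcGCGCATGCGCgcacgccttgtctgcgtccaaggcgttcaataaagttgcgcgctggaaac
Ndufa3: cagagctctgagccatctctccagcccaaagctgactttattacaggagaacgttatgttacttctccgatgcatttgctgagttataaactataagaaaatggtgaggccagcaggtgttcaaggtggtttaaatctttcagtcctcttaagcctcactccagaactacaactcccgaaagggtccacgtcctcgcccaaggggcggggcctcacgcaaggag
Cox6b2: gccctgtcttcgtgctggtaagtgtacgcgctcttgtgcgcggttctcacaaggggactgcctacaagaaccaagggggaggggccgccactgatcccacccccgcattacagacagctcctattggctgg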

How the data were processed

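The authors deposited 1 raw count of reads per gene and library, listed by Entrez identifier. Which tool made them is uncertain, since the paper describes Salmon and tximport and the labels list HTSeq with the mm10 build. Symbols and positions came from RefSeq (GRCm38.p6), which held 24045 of the 24100 identifiers, and transcript lengths (the median of basic protein-coding transcripts), exons and overlapping genes from GENCODE M21. All 12 libraries were used, and 4418 genes had no count.

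In R 4.3.3, genes passing filterByExpr of edgeR 4.0.16 on the 4 groups (14263 genes) were normalized by TMM and fitted with glmQLFit, with terms for line and genotype, or with the 4 groups for effects in each line, their difference, and WT line 2 against WT line 1. Genes were called where p, adjusted over all genes tested by Benjamini and Hochberg's method, was under 0.05. The SE is the coefficient's size over the square root of F. The interferon median used log2 CPM with 0.5 added. The fit was tested on simulated data.

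The genes named were Rtf2, Cox6b2, up to 8 genes called in each direction with one sign in both lines, the isoform families of complex IV, subunit c, complex II, the gene of each complex with the highest level per kilobase, genes called at a log2 fold change beyond 1, those below the filter, and the 3 smallest p of each other list. Genes named outside this rule were chosen after their values were seen. The members and lists were chosen with earlier results of these data known. The alternatives were RLE normalization, no filter, 1 CPM in 6 libraries, DESeq2 1.42.0, a replicate block, genotype alone, triplicates summed, only the libraries of a line, a log2 fold change beyond 1, and each library left out. The longest and the shortest transcript as length were added after seeing the data.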

Additional observations from a re-analysis of the deposited data

Results flagged for a closer look

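Among the 6 RTF2-deficient libraries, the total of line 2 replicate 2 was far from the others, at 39360167 counts, where the next lowest had 41877556 (a distance of 0.684 times the range). Among the 6 WT libraries, the level of Ndufa11 in line 2 replicate 2 was far from the others, at 40.5 CPM, where the next highest had 34.4 CPM (0.728 times the range). These 2 came from 36 sets of 6 values examined, and chance alone gives about 5% of sets such a library.

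By edgeR's quasi-likelihood test, the difference between the genotypes was unlike in line 1 and line 2 for 4 of 231 genes examined. Of all genes tested 1.29% passed. None of the 4 was an oxidative phosphorylation gene. All 4 were sex-linked and set WT line 2 apart from the other groups, so RTF2 deficiency cannot be told apart from this difference in line 2. The difference in line 2 minus that in line 1, on the log2 scale, was 11.19 for Xist, which is X-linked. For the Y-linked genes Uty, Ddx3y and Kdm5d it was -10.54, -11.32 and -5.04.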

How the results depend on the processing

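Of 184 values of the comparisons recomputed under an alternative, 163 stayed within a set margin, 20 moved and 1 was weaker. For counts the margin was a set factor. For the median log2 fold change it was 0.0956, the SD within groups of the genes' median log2 level. The median changed sign without WT line 2 replicate 2, as given above, within this margin. A reversal was looked for only in Cox6b2, which had none. The count of genes lower over both lines was 0 with triplicates summed, where 11 of the 90 genes and 2737 of all 14263 genes had an unadjusted p under 0.05. It was 1 with a log2 fold change beyond 1 added, beside 1.72% of all genes in either direction. It was 8 to 9 with a library left out, beside 5.68% to 8.29% of all genes. The count in line 1 was 3 without a filter, beside 1.54% of all genes, and 1 to 6 with a library left out, beside 1.1% to 2.51%. The count in line 2 was 3 with only the 6 libraries of that line, beside 4.17%, and 4 to 8 with a library left out, beside 3.11% to 9.14%. With a library left out, genes higher in line 2 numbered 0 to 3, beside 2.5% to 7.27% of all genes. Genes differing between the WT lines then numbered 0 to 7, beside 8.69% to 15.4%, and with DESeq2 they numbered 1, beside 19.3%.

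With a replicate block, the counts lower were 8 over both lines, 0 in line 1 and 5 in line 2, without Ndufa11 and Ndufaf5, and 1 gene differed between the WT lines. Of all genes 6.88%, 1.4% and 6.46% were lower in these fits, and 13% differed between the WT lines. In line 1 each library correlated best with the one of its own number (r of 0.625, 0.43 and 0.484), a hint from the data that these numbers pair the genotypes and not part of the design. In line 2 none did (r of -0.587, 0.17 and -0.279).

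The log2 fold change of Cox6b2 was -2.72 with triplicates summed and -2.97 to -2.52 with a library left out. All 9 lower genes lost their calls with triplicates summed, at adjusted p of up to 0.204, as did Rtf2 at 0.102, since that fit has 4 samples and 3 terms. Ndufb2 also lost its call with the replicate block (adjusted p = 0.0754 by edgeR). Of the single genes named, 4 values were stronger, 68 weaker and 0 reversed, and 39 values of genes that did not pass changed sign. The causes of these changes were not tested beyond the number of samples. A count of 0 allows levels of up to 0.0762 CPM at this depth, and protein levels were not part of these data.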
